A study of Mus musculus with 16 samples.

Results

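The genes described here are 31 mouse genes of sterol and fatty acid synthesis: the enzymes that build cholesterol from acetyl-CoA, the enzymes that build, lengthen and desaturate fatty acids, and a few genes that regulate or carry sterols. They were chosen by name, with earlier results of these data known. Each was read through the probe sets that the platform annotation assigns to it on either chip of the MG_U74 array set. Where a gene had several probe sets, 1 represented it, taken from the A chip before the B chip and then by the highest mean signal. Of the 31 genes, 30 had a probe set, with 53 probe sets between them, out of 13674 genes represented in all. Acat2, the cytosolic acetoacetyl-CoA thiolase, was the member without one, and was counted only in the promoter search. A dim-probe filter kept 28 of the 30 genes for tests, out of 8946 genes kept in all.

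The arrays were hybridised with RNA from mouse endothelial cells derived from embryonic stem cells in which both copies of the gene for VE-cadherin carry a null mutation. VE-cadherin (VEC, gene Cdh5) is the adhesion protein of endothelial adherens junctions. Per the labels, the cells were VEC-null or VEC-positive and were kept sparse or confluent, which gives 4 conditions, and cells of every condition were starved for 36 h in MCDB 131 medium with 1% BSA before lysis. The sources used here do not say how the positive cells regained VEC or whether each line is 1 clone. From 15 µg of total RNA, 1 labelled cRNA sample per condition was hybridised to 2 copies of each chip, which gives 16 arrays. The copies are therefore technical, and every p-value below sets a difference between cRNA samples against hybridisation spread, and says nothing of the spread between cultures.

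Cholesterol synthesis starts with the condensation of acetyl-CoA units to HMG-CoA and runs through mevalonate and the isoprenoid farnesyl diphosphate to squalene, which is closed into lanosterol and trimmed to cholesterol. The genes of this route, and many genes of fatty acid synthesis, share the SREBP transcription factors: when sterol in the endoplasmic reticulum is low, SREBP is cut free and switches them on, and when sterol is plentiful, INSIG proteins hold SREBP back. The nuclear receptor LXR works in the opposite setting. It is activated by oxidised sterols and switches on genes that move cholesterol out of the cell. SREBP-1c, one product of Srebf1, is itself an LXR target and favours fatty acid genes, while SREBP-2, from Srebf2, favours sterol genes.

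Signals are the deposited MAS5 values, which have no unit. Each array was scaled to a mean of 500, so a signal compares 1 probe set across conditions and not different genes with each other. Changes are given as log2 of the signal plus 50, so folds of dim genes are understated. A gene was called when limma's Benjamini-Hochberg adjusted p was below 0.05 and the change was at least 1 on this log2 scale. With 2 arrays a condition on a chip, the number of arrays limits the precision, and the standard error of a member's change was 0.08 to 0.27 in the comparisons of a pair of conditions.

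Copies of 1 cRNA sample correlated at 0.9505 to 0.9889 over all probe sets. The arrays differed in a few general measures. Array medians ran from 139.75 to 174.1 on the A chip and from 223.2 to 251 on the B chip. The Gapdh control probes of the A chip read 12787.6 to 12919.5 in confluent VEC-positive cells and 16729.2 to 21421.2 in the other conditions, and the actin controls were likewise lower there, at 19212.2 to 19633.9 against 23086.3 to 30458.9. On the B chip Gapdh read 28590.4 to 29270.3 there against 36571.7 to 55583.4, and actin 39699.9 to 44000.6 against 58107 to 69053.9. The ratio of 3′ to 5′ Gapdh signal on the B chip was 1.23 and 1.14 there and 0.91 to 1 elsewhere. That of actin, 1.21 and 1.28, lay within the range elsewhere, 1.21 to 1.31. Cdh5 itself read 1255.4 and 1281.6 in sparse VEC-null cells, 2707.2 and 2508.7 in confluent VEC-null cells, 1464.4 and 1333.7 in sparse VEC-positive cells, and 2607.2 and 2525.8 in confluent VEC-positive cells. The signal of the null line thus lay close to that of the positive line, and since the sources used here do not place the probes relative to the mutated part, it does not check the line labels. Line names below are those of the labels. All 12 endothelial markers listed were above the filter, and their summed signal rose with density in both lines, from 13454.7 and 13468.3 to 52274.9 and 52341.5 in VEC-null cells and from 21646.8 and 24610.3 to 51410.3 and 52348.7 in VEC-positive cells. Limma called 8 of the 12 higher with density in each line. Of all tested genes 8.71% rose in VEC-positive and 9.33% in VEC-null cells. Pecam1 averaged 118 to 180.75, around the filter level of 159.4, and Emcn and Eng changed by 0.03 and -0.05 with density in VEC-positive cells. Cldn5 and Vwf averaged 50.5 and 21.95 in confluent VEC-null cells and 5115.3 and 2516.45 in confluent VEC-positive cells. Among markers of lipid-making tissues, 0 of 6 hepatocyte genes passed the filter (summed signal 160.3 to 268.3 over all arrays), and 2 of 4 adipocyte genes did (447.2 to 678.7 in sparse and 798.1 to 934.2 in confluent cells), with Adipoq averaging 21 to 34.35. Of the 2 that passed, Lep averaged 477.15 to 651.2. Fabp4 averaged 29.6 and 155.25 in sparse and confluent VEC-null cells, and 126 and 246.9 in VEC-positive cells. Of the other lists, 4 of 10 smooth muscle and fibroblast genes passed (807 to 1031.7). There Acta2 averaged 371.35 and 122.6 in sparse and confluent VEC-null cells and 133.1 and 5.55 in VEC-positive cells, Pdgfrb averaged 327.65 in confluent VEC-null cells and 9.5 to 13 elsewhere, and Dcn averaged 93.95 to 231.2 in VEC-null and 435.25 to 586.35 in VEC-positive cells. Tagln averaged 151.1 and 44.15 in sparse and confluent VEC-null cells, and 164.8 and 60.5 in VEC-positive cells. The representative Myh11 probe set averaged 8.7 to 19.25 and a second one 284.1 to 479.6. In the blood list 1 of 5 did (324.9 to 1158.8), Cd68, which averaged 910 in confluent VEC-null cells and 273.25 to 352.85 elsewhere, with Ptprc at 9.1 to 14.05. In the embryonic stem cell list 1 of 6 did (329.3 to 513.3), Fgf4, which averaged 210.7 to 288.5, with Zfp42 at 10.05 to 17.35. In the epithelial list 2 of 6 did (425.7 to 1457.4), Cdh1, which averaged 305.1 to 406.8, and Krt19. Krt19 averaged 904.7 in sparse VEC-positive cells, the condition in which many members were highest, and 3.9 to 5.6 elsewhere, with Epcam at 6.25 to 19.8. Whether the rise of endothelial markers, the fall of the control probes, or the moves of Krt19, Cd68, Acta2, Tagln, Pdgfrb, Dcn and Fabp4 have a part in the results below was not tested.

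The main result is a fall of sterol pathway genes at confluence, with more genes called in VEC-positive than in VEC-null cells. In confluent against sparse VEC-positive cells 18 of 28 tested members fell (64.3%), where 7.25% of all tested genes fell. Because earlier results of these data were known when the list was chosen, this and later shares are description and not independent support. Fdps, farnesyl diphosphate synthase, fell 17.7-fold, Idi1 14.1-fold, Msmo1 12.3-fold and Lss 9.87-fold. In VEC-null cells the same comparison called 6 members lower (21.4%, against 7.89% of all genes), namely Idi1, Fdps, Lss, Cyp51, Msmo1 and Elovl6, and these 6 were all among the 18. No member was called higher with density by limma in either line, where 8.71% of all genes rose in VEC-positive and 9.33% in VEC-null cells. At an unadjusted p below 0.05 the counts of higher members were 0 and 3, and in VEC-null cells Srebf1 (0.92, limma adjusted p = 0.00022) and Hsd17b7 (0.84, limma adjusted p = 0.00087) missed the call by their size alone. Over the 30 measured members the median change was -1.22 in VEC-positive and -0.64 in VEC-null cells, beside 0.025 and 0.034 over all genes measured. By sign alone, 28 of 30 members were lower at confluence in VEC-positive cells, 25 in VEC-null cells and 24 in both.

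The test of the difference itself, the density response of VEC-positive minus that of VEC-null cells, called 15 of 28 members (53.6%) with the more negative response in VEC-positive cells, beside 6.26% of all genes. In the other direction limma called 0 members, beside 6.62% of all genes, and 1 member had an unadjusted p below 0.05. By sign, 26 of 30 members fell further in VEC-positive cells. Across the 30 members the responses of the 2 lines correlated with r = 0.741, and across all 8946 tested genes with r = 0.627. Both are correlations across genes of 1 cRNA sample per condition, and genes are not independent replicates.

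**Figure D1:**
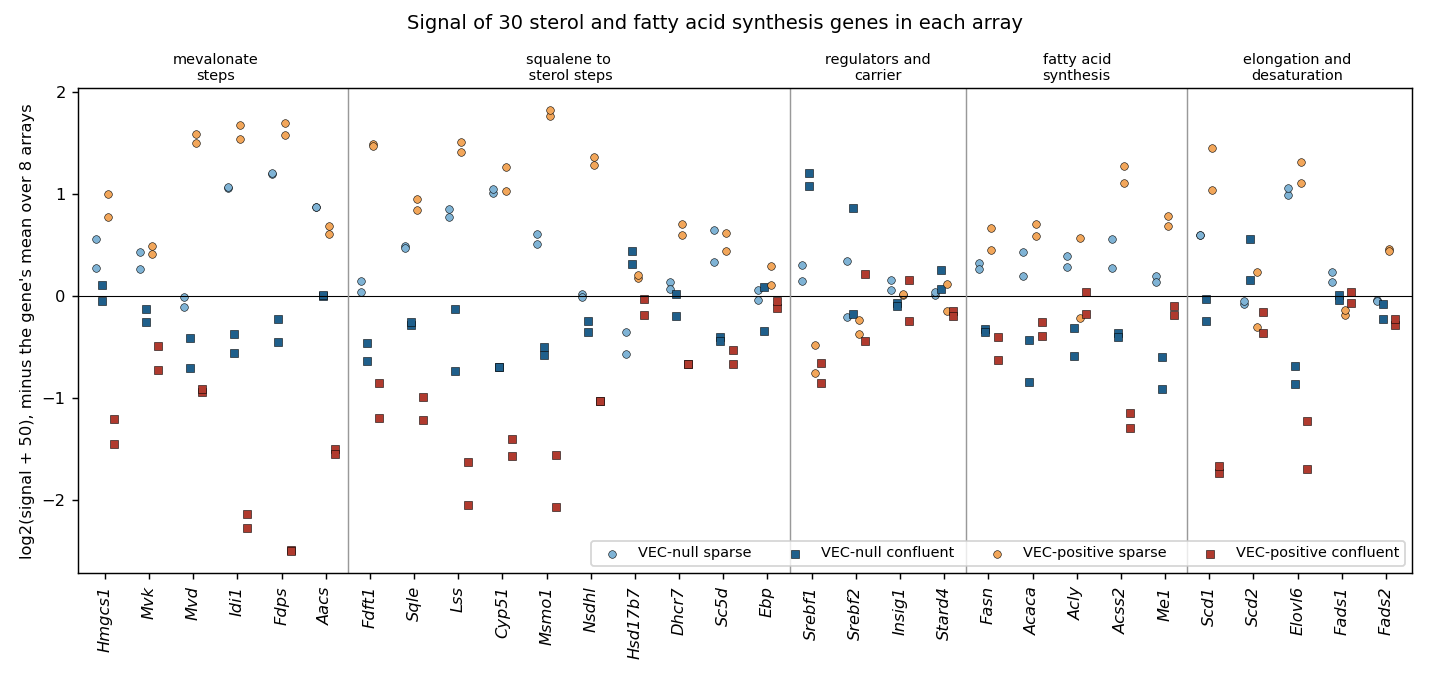
Log2(signal + 50) of the 30 measured members in each array, minus the gene's mean over its 8 arrays; circles are sparse and squares confluent cells, blue VEC-null and orange or red VEC-positive, 2 copies each. For most sterol genes sparse VEC-positive cells lie highest and confluent VEC-positive cells lowest, as for Fdps with 8112.7 and 7465 against 395.3 and 391.1.

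The 4 conditions took the same order in many members: sparse VEC-positive cells highest, then sparse VEC-null, confluent VEC-null and confluent VEC-positive. This order was picked out after the values had been seen. It held with no overlap between the copies of neighbouring conditions for 15 of 28 members (53.6%), against 1.5% of all tested genes: Hmgcs1, Mvd, Idi1, Fdps, Fdft1, Sqle, Lss, Msmo1, Nsdhl, Dhcr7, Scd1, Fasn, Acss2, Elovl6 and Fads2. Both confluent VEC-positive arrays lay below all 6 others in 19 members (67.9%), against 15% of all tested genes.

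Since many members moved together, the stretch before their starts is of interest. RefSeq promoters (assembly GRCm38.p6) were matched by symbol for 24 of the 31 members, and the 250 bases before each annotated start were searched on both strands. Letters of the sterol response element core, TCACNCCA, were found in 3 of the 24 members (12.5%), against 4.2% of all 27025 genes with a promoter and 4.03% of coding genes. The CCAAT box ATTGG, which NF-Y binds beside SREBP in several known sterol genes, was found in 18 members (75%), against 37.5% of all and 39.5% of coding genes. The Sp1 box GGGCGG was found in 20 members (83.3%, against 35.4% and 45.8%), and the E-box CACGTG, which SREBP-1 can also bind, in 4 (16.7%, against 6.86% and 7.61%). Of the 14 members with a promoter that fell with density in VEC-positive cells, 12 held ATTGG and 2 held TCACNCCA. A gene with several starts was counted once if any of them held the motif. These motifs do not contain one another, a match is a description of the letters only, and a missing match says nothing of the factor.

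The stretches below show the 3 members with TCACNCCA (Hmgcs1, Msmo1 and Srebf2) and 3 falling members with ATTGG but not TCACNCCA (Idi1, Lss and Mvd), which also hold GGGCGG. Each runs 5′ to 3′ on the gene's strand within the promoter, before the annotated start, and capitals mark TCACNCCA, ATTGG and its reverse complement CCAAT. They lie at chr13:119690168-119690267 (+ strand, 183 to 84 bases before the start of Hmgcs1), chr8:64733702-64733801 (- strand, 223 to 124 bases before Msmo1), chr15:82147061-82147160 (+ strand, 208 to 109 bases before Srebf2), chr13:8885506-8885605 (+ strand, 100 to 1 bases before Idi1), chr10:76531505-76531604 (+ strand, 100 to 1 bases before Lss) and chr8:122443423-122443522 (- strand, 100 to 1 bases before Mvd).
Hmgcs1: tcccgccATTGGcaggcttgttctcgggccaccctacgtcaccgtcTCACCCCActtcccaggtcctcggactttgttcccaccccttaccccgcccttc
Msmo1: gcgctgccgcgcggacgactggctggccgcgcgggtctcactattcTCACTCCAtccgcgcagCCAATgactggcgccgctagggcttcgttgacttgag
Srebf2: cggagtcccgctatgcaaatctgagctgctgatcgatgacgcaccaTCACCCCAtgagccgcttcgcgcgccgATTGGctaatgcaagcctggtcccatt
Idi1: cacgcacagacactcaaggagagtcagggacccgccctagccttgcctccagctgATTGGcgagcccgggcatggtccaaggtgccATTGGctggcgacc
Lss: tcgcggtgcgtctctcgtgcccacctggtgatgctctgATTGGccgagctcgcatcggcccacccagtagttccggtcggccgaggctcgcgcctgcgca
Mvd: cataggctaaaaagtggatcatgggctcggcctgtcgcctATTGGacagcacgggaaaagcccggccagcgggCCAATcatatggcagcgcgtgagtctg

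**Figure D2:**
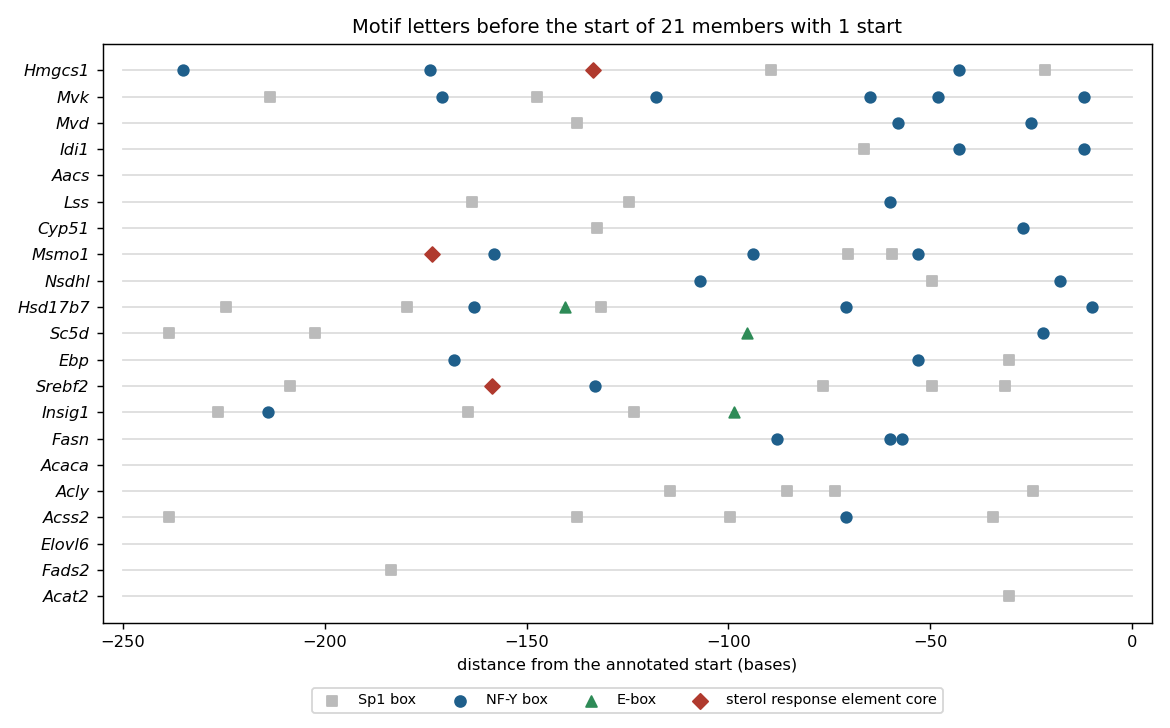
Positions of motif letters in the 250 bases before the annotated start (horizontal axis, bases; 0 is the start) for the 21 members with 1 start in the RefSeq table, 1 row a gene. Diamonds mark TCACNCCA, circles ATTGG, squares GGGCGG and triangles CACGTG, on either strand; diamonds appear in Hmgcs1, Msmo1 and Srebf2.

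The mevalonate steps and the acetoacetate enzyme Aacs fell together at confluence in VEC-positive cells: 6 of 6 measured genes were called, from -4.14 to -1.05, beside 7.25% of all tested genes. Hmgcs1, HMG-CoA synthase, which makes HMG-CoA, had signals of 2452.2 and 3002.7 in sparse VEC-null cells, 2178.9 and 1958.2 in confluent VEC-null cells, 4093.5 and 3493.2 in sparse VEC-positive cells and 846.2 and 709.3 in confluent VEC-positive cells. The conditions did not overlap, and confluent VEC-positive cells were far below the rest. Hmgcs1 fell by 2.22 (SE 0.13, limma adjusted p = 8.2e-07) with density in VEC-positive cells and changed by -0.39 (SE 0.13, adjusted p = 0.035) in VEC-null cells, short of the fold set for a call.

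Mvk, mevalonate kinase, read 625.1 and 706.2 in sparse and 464.7 and 420.8 in confluent VEC-null cells, and 738.1 and 696.1 in sparse and 290.4 and 350.4 in confluent VEC-positive cells. Sparse cells of both lines overlapped, and confluent VEC-positive cells were lowest. Its fall of 1.05 (SE 0.13) in VEC-positive cells became -0.94 without copy 1 of the confluent VEC-positive arrays and -0.82 with an offset of 200, which ends the call, while a second probe set for Mvk gave -2.76 in VEC-positive and -1.58 in VEC-null cells, both called. Mvd, the decarboxylase that forms isopentenyl diphosphate, had signals of 391.8 and 364.6 in sparse VEC-null cells and 222.4 and 284.8 at confluence, and of 1214.5 and 1293.9 in sparse and 181.7 and 187.4 in confluent VEC-positive cells. Sparse VEC-positive cells stood alone at the top for Mvd, 3.05-fold above sparse VEC-null cells (log2 1.61, SE 0.14, limma adjusted p = 2.2e-05). With density Mvd fell 5.56-fold in VEC-positive cells and changed by -0.50 in VEC-null cells.

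Idi1, the isomerase that turns isopentenyl into dimethylallyl diphosphate, gave 3418.2 and 3436 in sparse and 1233.2 and 1071.9 in confluent VEC-null cells, and 5258.4 and 4768.7 in sparse and 327.2 and 292.5 in confluent VEC-positive cells. Density separated the arrays in both lines with no overlap, and the fall was 2.9-fold in VEC-null (log2 -1.54, SE 0.10) and 14.1-fold in VEC-positive cells (log2 -3.81, SE 0.10). A B chip probe set for Idi1 gave smaller falls, -1.15 in VEC-null and -2.68 in VEC-positive cells, both called. Between confluent lines it gave -0.87 and was not called, where the representative probe set was called at -1.74. Fdps, which joins isoprene units to farnesyl diphosphate, had the largest fall of all measured members: 5705 and 5729.1 in sparse and 1788.6 and 2091.2 in confluent VEC-null cells, and 8112.7 and 7465 in sparse and 395.3 and 391.1 in confluent VEC-positive cells. All 4 conditions were separate. Fdps fell by 4.14 (SE 0.09, limma adjusted p = 4.4e-09) in VEC-positive and by 1.54 (SE 0.09, limma adjusted p = 9.7e-07) in VEC-null cells, and its responses differed by -2.60 (SE 0.13, limma adjusted p = 7.7e-06). A second bright Fdps probe set gave -3.30 and -1.89, and the remaining pair was dim and not tested.

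Aacs, acetoacetyl-CoA synthetase, which feeds ketone bodies into lipid synthesis, departed from the common order in sparse cells. It read 4214.7 and 4207.2 in sparse and 2269.7 and 2280.1 in confluent VEC-null cells, and 3694.5 and 3500.4 in sparse and 767.3 and 741.4 in confluent VEC-positive cells, so sparse VEC-null cells were highest. Aacs fell 4.53-fold with density in VEC-positive cells (log2 -2.18, SE 0.08) and changed by -0.87 (SE 0.08) in VEC-null cells, just short of a call. Over the mevalonate group as a whole, 2 of 6 genes were called lower with density in VEC-null cells, beside 7.89% of all tested genes. In 5 of 6 the density response was called more negative in VEC-positive cells, beside 6.26% of all tested genes.

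From squalene onward 8 of 10 genes fell with density in VEC-positive cells, from -3.62 to -1.12, and 3 of 10 in VEC-null cells. Of all tested genes 7.25% and 7.89% fell. Fdft1, squalene synthase, the first step committed to sterols, had 1358.6 and 1255.7 in sparse and 767.5 and 871.7 in confluent VEC-null cells, and 3513.6 and 3472.6 in sparse and 654.6 and 504.8 in confluent VEC-positive cells. As for Mvd, sparse VEC-positive cells stood out, 2.61-fold above sparse VEC-null cells, and the fall with density was 5.67-fold in VEC-positive cells against a change of -0.64 in VEC-null cells. Sqle, squalene epoxidase, an oxygen-using control point of the route, read 3189.1 and 3135.7 in sparse and 1847.9 and 1882.9 in confluent VEC-null cells, and 4412.8 and 4080.5 in sparse and 941 and 1107.8 in confluent VEC-positive cells. Copies lay close together in every condition, and Sqle fell 4.01-fold in VEC-positive cells and changed by -0.75 (SE 0.10) in VEC-null cells.

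Lss, lanosterol synthase, which closes the sterol rings, read 1023.4 and 972.2 in sparse and 307 and 494.3 in confluent VEC-null cells, and 1540.2 and 1643.3 in sparse and 93.5 and 142.7 in confluent VEC-positive cells. The copies of confluent cells lay well apart, and the last pair lay under the filter level of 159.4, where a signal says little beyond being low. Lss fell by 3.30 (SE 0.20) in VEC-positive and by 1.25 (SE 0.20) in VEC-null cells, and the latter became -0.94 and was not called without copy 1 of the confluent VEC-null arrays. A second Lss probe set gave -2.19 in VEC-positive cells, called, and -0.43 in VEC-null cells, not called.

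The removal of methyl groups from lanosterol involves Cyp51, Msmo1, Nsdhl and Hsd17b7. Cyp51, lanosterol demethylase, gave 784 and 807.5 in sparse and 205.5 and 205.4 in confluent VEC-null cells, and 942.2 and 796.3 in sparse and 89 and 106.5 in confluent VEC-positive cells. Here the sparse lines overlapped, and Cyp51 fell 3.31-fold in VEC-null and 6.21-fold in VEC-positive cells. The difference of its responses was -0.91 (SE 0.19) and missed the call, while a second probe set gave -1.43 and was called. Msmo1, a methylsterol oxidase, read 1106.7 and 1193.2 in sparse and 494.6 and 526.3 in confluent VEC-null cells, and 2727.7 and 2837.2 in sparse and 143.9 and 224.8 in confluent VEC-positive cells. All 4 conditions were separate, and Msmo1 was called in all 5 comparisons: -3.62 and -1.10 with density in VEC-positive and VEC-null cells, -1.28 and 1.24 between the lines at confluence and when sparse, and -2.52 for the difference of responses. With an offset of 200 its changes in VEC-null cells and between confluent lines became -0.93 and -0.89 and were not called.

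Nsdhl, a sterol dehydrogenase, read 704.6 and 693.7 in sparse and 534 and 582 in confluent VEC-null cells, and 1877.1 and 1777.1 in sparse and 315.1 and 314.7 in confluent VEC-positive cells. It changed by -0.30 (SE 0.10) in VEC-null cells and fell 5.14-fold in VEC-positive cells, and its other 3 probe sets gave -2.60 to -1.33 there, all called. In VEC-null cells those 3 gave 0.16, -0.73 and -0.31, none called, so they vary in size and sign. Hsd17b7, a ketosteroid reductase, departed from the group, with 173.1 and 209.5 in sparse and 399.5 and 362.2 in confluent VEC-null cells, and 324.2 and 331.9 in sparse and 273.2 and 241.4 in confluent VEC-positive cells. On this probe set the highest Hsd17b7 arrays were those of confluent VEC-null cells. Neither density change was called (0.84 in VEC-null, -0.30 in VEC-positive cells), but their difference was, at -1.14 (SE 0.20, limma adjusted p = 0.0027), which became -0.78 and not called with an offset of 200. A second Hsd17b7 probe set, on the B chip, gave -0.40 for this difference and was not called. It took another order, with sparse VEC-positive cells highest at 2381.8 and 2947.7. It read 2362.4 and 2161.7 in confluent VEC-positive and 1732 and 1866.1 in confluent VEC-null cells, so the Hsd17b7 probe sets disagree.

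Of the last steps to cholesterol, Dhcr7 and Sc5d were called and Ebp was not. Dhcr7, which removes the final double bond of 7-dehydrocholesterol, read 331.3 and 313.3 in sparse and 301.9 and 251.7 in confluent VEC-null cells, and 514.8 and 475.9 in sparse and 167.8 and 168.1 in confluent VEC-positive cells. It fell 2.5-fold with density in VEC-positive cells and changed by -0.19 in VEC-null cells, and with an offset of 200 both its fall (-0.92) and the difference of responses (-0.78, from -1.13) were no longer called. Sc5d, a sterol desaturase, read 277.3 and 356.4 in sparse and 146.9 and 140.9 in confluent VEC-null cells, and 301.7 and 347.8 in sparse and 130.3 and 113.7 in confluent VEC-positive cells. The lines overlapped when sparse, and Sc5d fell by 1.12 (SE 0.16) in VEC-positive cells (-0.70 and not called with an offset of 200) beside -0.91 in VEC-null cells. Of its other probe sets, 1 gave -1.40 in VEC-positive but 0.23 in VEC-null cells and 1.51 between the sparse lines, so the Sc5d probe sets disagree on VEC-null cells. Ebp, a sterol isomerase, ranged from 240.4 to 402.3 with overlapping conditions and was not called in any comparison.

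**Figure D3:**
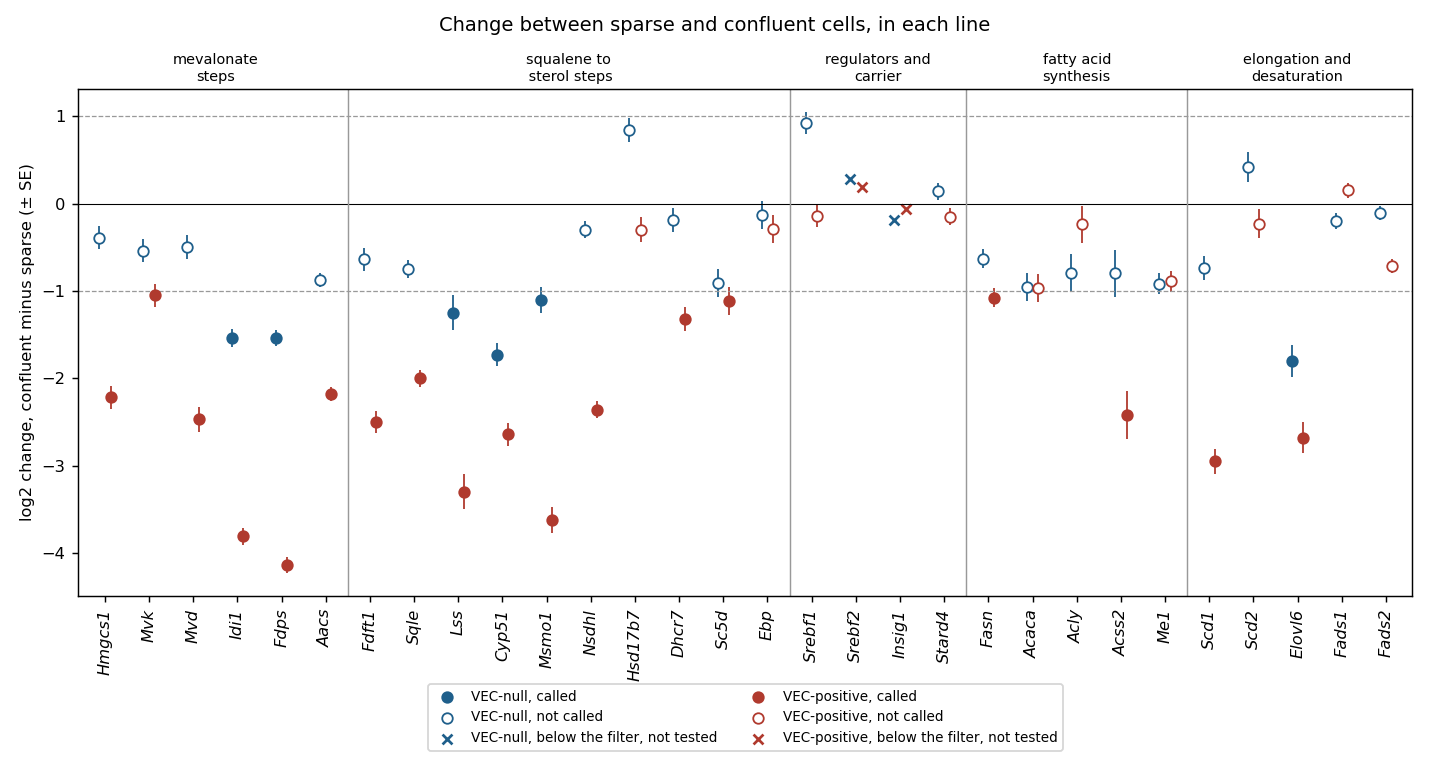
Log2 change from sparse to confluent cells (vertical axis, with SE) for the 30 measured members, blue in VEC-null and red in VEC-positive cells; filled points were called, open points were tested and not called, and crosses lay below the filter. Red points lie below blue points for most sterol genes, as for Fdps at -4.14 and -1.54, and the pairs lie close together for Acaca and Me1.

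Of the enzymes of fatty acid synthesis, 2 of 5 were called lower with density in VEC-positive and 0 of 5 in VEC-null cells. Of all tested genes 7.25% and 7.89% fell, so a count of 0 in 5 genes says little. The median change of the 5 enzymes was -0.97 in VEC-positive and -0.80 in VEC-null cells. In VEC-null cells all 5 were lower by -0.95 to -0.63, and limma's unadjusted p was below 0.05 for 5 of them. Acss2, which activates acetate to acetyl-CoA in the cytosol and nucleus, read 190.3 and 243.2 in sparse and 103.9 and 100.5 in confluent VEC-null cells, and 430.3 and 378.2 in sparse and 39.6 and 30.6 in confluent VEC-positive cells. Only its sparse VEC-positive mean, 404.25, lay above the filter level of its chip, 235.1. Acss2 thus entered the tests through the condition where it was highest, and its calls are description only. Its confluent VEC-positive signals lay far under that level, and its density change in VEC-positive cells was -2.42 (SE 0.27). Its responses differed by -1.61 (SE 0.38, limma adjusted p = 0.011), which was not called at -0.90 with an offset of 200 or at -1.47 without copy 1 of the sparse VEC-null arrays.

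Fasn, fatty acid synthase, which makes palmitate, read 2345.9 and 2245.6 in sparse and 1486 and 1448.2 in confluent VEC-null cells, and 2578.8 and 3002.4 in sparse and 1395.9 and 1193.3 in confluent VEC-positive cells. On this probe set the lines lay near each other at both densities, and Fasn fell by 1.08 (SE 0.11) in VEC-positive cells and changed by -0.63 (SE 0.11) in VEC-null cells. The call ended, at -0.97, without copy 2 of either the sparse or the confluent VEC-positive arrays. A B chip probe set for Fasn gave -1.63 in VEC-positive and -0.04 (SE 0.28) in VEC-null cells. Its difference of responses was called at -1.59 (SE 0.40). This probe set was dim, and only its sparse VEC-positive mean, 286.65, lay above the filter level of its chip. It averaged 168.6 and 165.45 in sparse and confluent VEC-null cells, and 58.75 in confluent VEC-positive cells. Its calls are thus description only, and its value in VEC-null cells says little against that of the brighter probe set. Acaca, acetyl-CoA carboxylase, which makes malonyl-CoA, and Me1, malic enzyme, a source of NADPH, had nearly equal responses in both lines, -0.97 and -0.95 for Acaca and -0.89 and -0.92 for Me1. The difference of responses was -0.02 (SE 0.22) for Acaca and 0.04 (SE 0.17) for Me1. Acly, ATP citrate lyase, which supplies cytosolic acetyl-CoA, was -0.24 (SE 0.21) in VEC-positive and -0.79 (SE 0.21) in VEC-null cells, with sparse VEC-positive copies as far apart as 3284.6 and 5696.7.

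Among elongases and desaturases 2 of 5 fell in VEC-positive cells, Scd1 and Elovl6, and 1 of 5 in VEC-null cells, Elovl6. Of all tested genes 7.25% and 7.89% fell, and with 5 genes a count of 1 says little of the group. Scd1, stearoyl-CoA desaturase, which puts the first double bond into saturated fatty acids, read 1757.8 and 1757 in sparse and 955.8 and 1121.9 in confluent VEC-null cells, and 3211.3 and 2399 in sparse and 308.1 and 325.2 in confluent VEC-positive cells. All 4 conditions were separate, and Scd1 fell by 2.95 (SE 0.14) with density in VEC-positive cells and changed by -0.74 (SE 0.14) in VEC-null cells. A second Scd1 probe set gave -4.10 and -0.97. Scd2, the desaturase of the same family that many non-hepatic cells express, was bright and overlapped between conditions, from 6006.6 to 11490.2. It was not called, with -0.62 (SE 0.17, limma adjusted p = 0.022) between the confluent lines, and its 2 probe sets took opposite signs in all 4 comparisons between conditions.

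Elovl6, which lengthens palmitate to stearate, read 638.1 and 668.8 in sparse and 165.2 and 140.3 in confluent VEC-null cells, and 812 and 695.5 in sparse and 97.4 and 56.3 in confluent VEC-positive cells. It fell with density in both lines, 3.48-fold in VEC-null (log2 -1.80, SE 0.18) and 6.4-fold in VEC-positive cells (log2 -2.68, SE 0.18), with a difference of -0.88 (SE 0.25) that was not called. The desaturases of polyunsaturated fatty acids were not called. Fads1 changed by 0.15 and -0.20 with density in VEC-positive and VEC-null cells. Fads2 read 2305.3 and 2400.4 in confluent against 3912.8 and 3865.6 in sparse VEC-positive cells, a change of -0.71 (SE 0.08, limma adjusted p = 9.5e-05), short of the fold for a call, beside -0.11 in VEC-null cells.

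The regulators had patterns of their own. Srebf1, which encodes SREBP-1, read 1301.3 and 1164.6 in sparse and 2267.1 and 2481.3 in confluent VEC-null cells, and 598.9 and 735.9 in sparse and 554.6 and 641.8 in confluent VEC-positive cells. VEC-positive cells were below VEC-null cells at both densities, and density moved Srebf1 by 0.92 (SE 0.13) in VEC-null and by -0.14 (SE 0.13) in VEC-positive cells, neither called. Between confluent lines Srebf1 was 3.74-fold lower in VEC-positive cells (log2 -1.90, SE 0.13, limma adjusted p = 6.6e-06). The difference of its responses, -1.06 (SE 0.18), was not called at -0.98 without copy 2 of the sparse VEC-null arrays, just under a size of 1 without copy 2 of the confluent VEC-null arrays, at -0.92 without copy 2 of the sparse VEC-positive arrays, at -0.96 without copy 1 of the confluent VEC-positive arrays, or at -0.96 with an offset of 200. The array does not separate the SREBP-1a and SREBP-1c transcripts here.

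Insig1, which encodes an INSIG protein and is itself an SREBP target, was represented by a dim A chip probe set, at 3.2 to 20.3, that was not tested. Its B chip probe set was kept, with 882.5 and 897 in sparse and 689.1 and 596.5 in confluent VEC-null cells, and 692.2 and 824.2 in sparse and 195.6 and 201.8 in confluent VEC-positive cells. Confluent VEC-positive cells were again lowest with no overlap, at -1.70 (SE 0.16) with density, and the difference of responses was -1.25 (SE 0.22), both called, although the lowest pair lay under the filter level of that chip. Srebf2 read 6.9 to 90.7, below the filter, so nothing can be said of its level. Stard4, a sterol carrier protein, ranged from 3643.4 to 5008.1 and was not called (-0.33, SE 0.10, limma adjusted p = 0.033 between the confluent lines), with a second probe set that differed in sign in 2 of 4 comparisons.

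Between the lines, the direction depended on density. In confluent cells 8 of 28 members were lower in VEC-positive than in VEC-null cells (28.6%, beside 3.48% of all genes): Hmgcs1, Idi1, Fdps, Lss, Msmo1, Srebf1, Scd1 and Aacs, from 4.48-fold for Fdps to 2.43-fold for Msmo1. Limma called 0 members higher there, beside 4.57% of all genes, and 1 member was higher at an unadjusted p below 0.05. In sparse cells 4 members were higher in VEC-positive cells (14.3%, beside 5.82% of all genes): Mvd, Fdft1, Nsdhl and Msmo1, from 3.05-fold to 2.36-fold. Limma called 0 members lower, beside 4.37% of all genes, with 3 at an unadjusted p below 0.05. Over the 30 measured members the median difference was -0.53 in confluent and 0.38 in sparse cells, beside -0.032 and -0.011 over all genes. The density and line comparisons share arrays, so these values are not independent of those above.

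**Figure D4:**
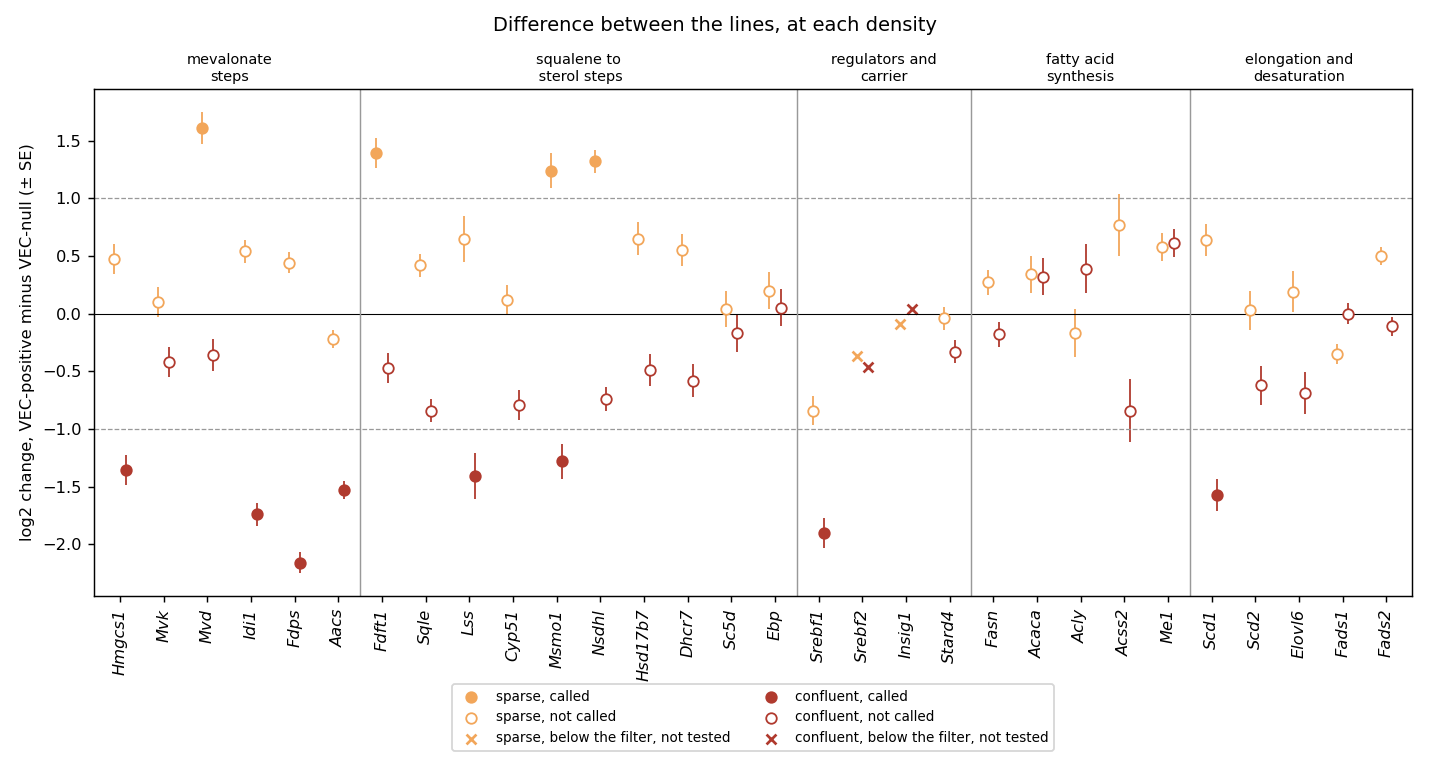
Log2 difference of VEC-positive minus VEC-null cells (vertical axis, with SE) for the 30 measured members, orange in sparse and red in confluent cells; filled points were called, open points were tested and not called, and crosses lay below the filter. Most sterol genes lie above 0 when sparse and below 0 when confluent, as for Msmo1 at 1.24 and -1.28.

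The median gene of some chromosomes lay off 0 between the lines, and whether such a shift has a part in the line difference of a single gene was not tested. The median gene of chromosome 8, which holds Mvd and Msmo1, was 0.291 higher in VEC-positive cells at confluence and 0.223 higher when sparse, that of chromosome 10, which holds Lss, 0.447 and 0.369 higher, and that of chromosome 14, which holds Fdft1, 0.232 and 0.26 higher. On chromosome 5, which holds Mvk, Cyp51, Insig1 and Aacs, the medians were -0.307 and -0.345. For chromosome 3, with Fdps and Elovl6, they were -0.109 and -0.166. For chromosome 19, with Scd1, Scd2, Fads1 and Fads2, they were -0.114 and -0.167. The X chromosome, with Nsdhl, was near 0 at 0.015 and -0.019. Within a line, the medians of the density change of chromosomes that hold members lay between -0.121 and 0.108.

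When copies were averaged and the 4 cRNA samples taken as units, with line and density as additive terms, 8 members were lower at confluence over both lines (28.6%, beside 4.11% of all genes): Idi1, Fdps, Lss, Cyp51, Msmo1, Scd1, Elovl6 and Aacs. Fdps led with -2.84 (SE 0.54, limma adjusted p = 0.0098). Limma called 0 higher, with 0 at an unadjusted p below 0.05, beside 6.16% of all genes. For the line, averaged over densities, limma called 0 members in either direction, beside 1.42% of all genes higher and 0.66% lower in VEC-positive cells, and at an unadjusted p below 0.05 there were 0 higher and 2 lower. This fit has 1 residual degree of freedom a chip and counts any unequal density response as error.

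Among 5 other measured genes of sterol and isoprenoid synthesis (Pmvk, Tm7sf2, Ggps1, Dhdds and Erg28) limma called 0 in any of the 5 comparisons. Of all tested genes 3.48% to 9.33% were called in 1 direction of a comparison, so a count of 0 in 5 genes says little. The median of the 5 genes was -0.30 with density in VEC-positive cells, with 2 of 5 at an unadjusted p below 0.05, and 0.103 in VEC-null cells, with 0 of 5. At an unadjusted p below 0.05 there were 2 of 5 between confluent lines, 3 of 5 between sparse lines and 2 of 5 for the difference of responses. In the list of SREBP machinery and sterol uptake, 2 of 8 tested genes were called in at least 1 of the 5 comparisons by their representative probe sets. The share of all genes called in at least 1 was not computed, so counts of this kind, here and below, are description only. Npc2, which hands cholesterol out of lysosomes, read 1381.1 and 1476.1 in sparse and 3972 and 3805.8 in confluent VEC-null cells, and 4041.9 and 3778.5 in sparse and 2498.3 and 2469.1 in confluent VEC-positive cells. It rose by 1.41 with density in VEC-null cells and changed by -0.64 in VEC-positive cells (difference -2.06, SE 0.11). Scarb1, a receptor that takes up cholesterol from lipoproteins, was lower in VEC-positive cells, at -1.67 when confluent and -1.24 when sparse. Vldlr, a lipoprotein receptor, was represented by a dim A chip probe set, but both of its tested B chip probe sets were called higher in VEC-positive cells, at 1.23 and 2.23 in confluent and at 1.84 and 2.24 in sparse cells. Scap, Insig2 and the proteases Mbtps1 and Mbtps2, of the machinery that holds, carries and cuts SREBP, were not called. Scap missed a call by its size alone between confluent lines, at 0.96 higher in VEC-positive cells (SE 0.10, limma adjusted p = 9.8e-05). A second Insig2 probe set gave -0.69 with density in VEC-positive cells (SE 0.13, limma adjusted p = 0.0015). Its difference of responses was -0.83 (SE 0.18, limma adjusted p = 0.0075), also short of the fold for a call.

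In the list of LXR and sterol efflux genes, 4 of 7 tested genes rose with density in both lines: Abca1, Abcg1, Mylip and Lipa. Of all tested genes 8.71% rose in VEC-positive and 9.33% in VEC-null cells, and the share that rose in both was not computed. Lcat, Cyp27a1 and Lpcat3 were not called. The median over the 11 measured genes was 0.091 in VEC-positive and 0.481 in VEC-null cells, beside 0.025 and 0.034 over all genes. Abca1, the pump that loads cholesterol onto apolipoproteins, read 10.2 and 11.3 in sparse and 861.8 and 971.2 in confluent VEC-null cells, and 42.4 and 72 in sparse and 1528.8 and 1347.5 in confluent VEC-positive cells. It was dim when sparse and bright at confluence in both lines, with changes of 3.99 (SE 0.17) and 3.81 (SE 0.17). Mylip, a ubiquitin ligase switched on by LXR, had 74.3 and 33.6 in sparse and 1193.3 and 1200.6 in confluent VEC-null cells, and 109.1 and 132.7 in sparse and 1031.6 and 1222.1 in confluent VEC-positive cells.

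Abcg1, a cholesterol pump, rose by 2.17 in VEC-null and by 1.67 in VEC-positive cells. Lipa, the lysosomal lipase that frees cholesterol from its esters, rose by 1.13 and 1.09, and its calls ended with an offset of 200 (0.93 and 0.95) and with median centring of the arrays (0.99 and 0.89). Limma called 0 of these 7 genes in the difference of responses, where Abca1 had -0.18 (SE 0.24), Mylip -0.83 (SE 0.33) and Abcg1 -0.50 (SE 0.28), or in either comparison between the lines. For the difference 6.62% of all tested genes were called higher and 6.26% lower, so a count of 0 in 7 genes says little. At an unadjusted p below 0.05 there were 1 of 7 for the difference and 4 of 7 in each comparison between the lines. These counts are of representative probe sets. A second Abcg1 probe set, on the B chip, was called higher in sparse VEC-positive than in sparse VEC-null cells (1.14, SE 0.31, limma adjusted p = 0.015). Its difference of responses was -1.06 (SE 0.43) and was not called.

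**Figure D5:**
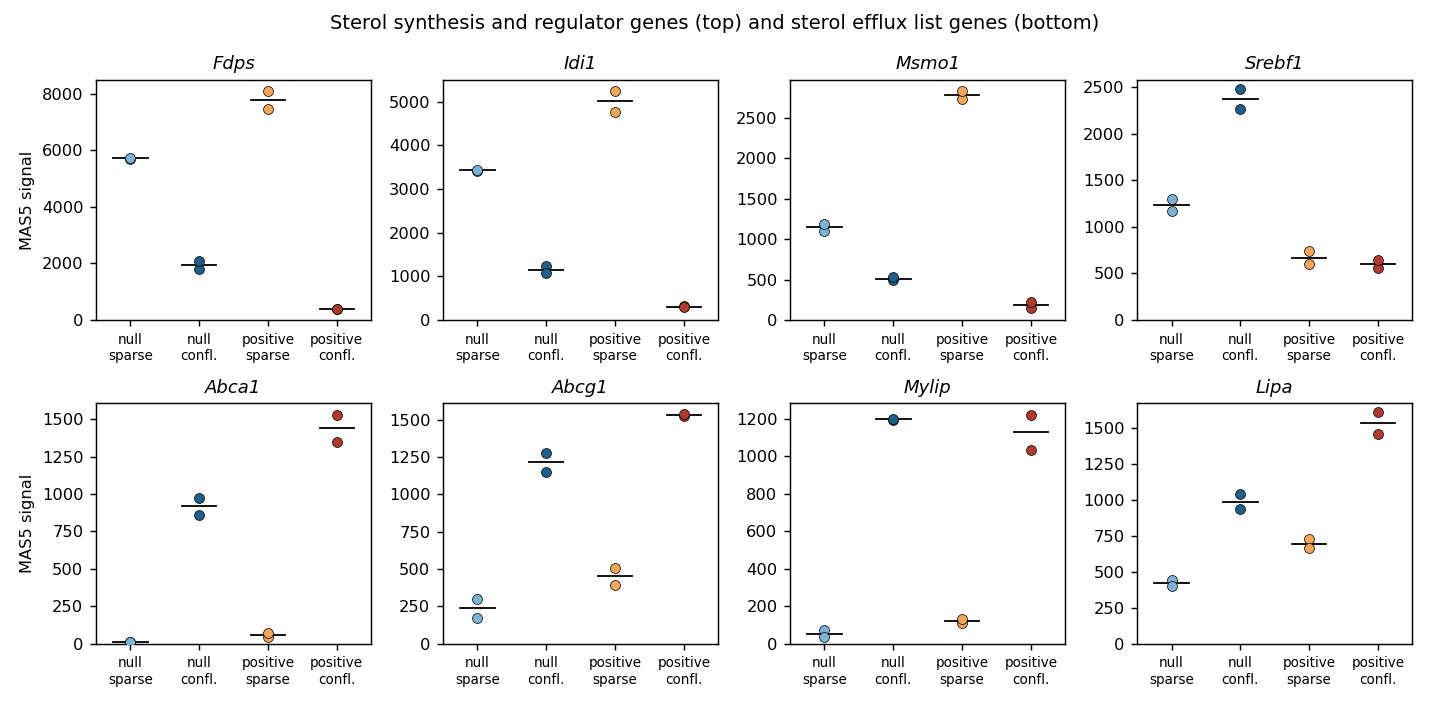
MAS5 signal (vertical axis, linear, from 0) in the 4 conditions for Fdps, Idi1, Msmo1 and Srebf1 (top) and Abca1, Abcg1, Mylip and Lipa (bottom); points are the 2 copies and bars their mean. Fdps, Idi1 and Msmo1 are lower at confluence, while Abca1, Abcg1, Mylip and Lipa are higher at confluence than when sparse in both lines.

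Among other genes of fatty acid synthesis and activation, 3 of 14 were called in at least 1 comparison. Fads3, a desaturase-family gene, fell with density in VEC-positive and VEC-null cells (-2.08 and -2.42), as did Hsd17b12, a ketoreductase of fatty acid elongation (-1.38 and -1.23). Pklr, a pyruvate kinase, was lower in VEC-positive cells, at -1.25 when confluent and -1.09 when sparse, and these were not called with an offset of 200 (-0.62 and -0.53), nor the latter without copy 2 of the sparse VEC-null (-1.04) or of the sparse VEC-positive arrays (-0.67). Of 13 fatty acid oxidation genes 2 were called. Cpt1a, which admits fatty acids to mitochondria, rose by 2.28 with density in VEC-null cells and changed by 0.98 in VEC-positive cells, where its sparse level was already 1.31 above that of VEC-null cells. Slc25a20, the carnitine carrier, was called for the difference of responses, at -1.46. In the list of triglyceride, phospholipid and fatty acid handling, 8 of 19 were called in at least 1 comparison, a count with no share of all genes computed beside it. Agpat2, an enzyme of phosphatidic acid synthesis, fell with density in both lines, at -2.08 in VEC-positive and -2.14 in VEC-null cells. Slc27a1, a fatty acid transporter, fell in VEC-positive cells (-1.39, and -0.74 and not called with an offset of 200) beside 0.10 in VEC-null cells. Pcyt2, an enzyme of phosphatidylethanolamine synthesis, was called at -1.02 in VEC-positive cells, and was not called without copy 1 of the sparse (-0.98) or copy 2 of the confluent VEC-positive arrays (-0.91) or with an offset of 200 (-0.88). Angptl4, a secreted inhibitor of lipoprotein lipase, only just reached the fold for a call as higher in VEC-positive cells, and was not called without copy 1 of the sparse (0.71) or of the confluent VEC-positive arrays (0.90), with an offset of 200 (0.51), or with quantile normalisation or median centring (0.81 each).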

How the data were processed

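RNA of 4 conditions was measured on 16 arrays, 8 on each of 2 chips. The deposited values are linear intensity signals, which the authors computed with MAS5 (version not stated in the sources used) and scaled to 500, per the labels. The files hold 0 columns without a sample. The series text also names a median normalisation over all samples, which was not seen as a centring in the values. Gene symbols came from GEO's platform annotation (21414 of 24833 probe sets had 1 symbol) and were checked against RefSeq (GRCm38.p6).

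Log2(signal + 50) was fitted per chip, over all conditions, by limma 3.58.1 (R 4.3.3) with a variance trend. A probe set was kept if at least 1 condition's mean lay above its chip's median (50th percentile), a signal of 159.4 for the A chip and 235.1 for the B chip, which left 7006 and 7240. P-values were adjusted by Benjamini-Hochberg over both chips. The procedure was tested on simulated data. Percentages of all genes are over the representative probe sets of 8946 genes. All members were named or counted, and values in every array are given for members called in at least 1 of the 5 comparisons; of other lists up to 4 called genes are described, those with the largest change in confluent against sparse VEC-positive cells, and a few more, called or not, were named after their values were seen (the other sterol synthesis genes, Scap, Insig2, Mbtps1, Mbtps2, Vldlr, Lcat, Cyp27a1, Lpcat3 and markers). The members and lists were chosen with earlier results of these data known. Alternatives were offsets of 16 and 200, no filter and a filter at the 75th percentile, quantile normalisation, median centring, other variance priors, the copy number as a block, another choice of probe set, calls by adjusted p alone, and leaving out each copy. The copy numbers did not pair the arrays: deviations of same-numbered copies correlated at -0.0888 to 0.0773.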

Additional observations from a re-analysis of the deposited data

Results flagged for a closer look

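The density response (confluent minus sparse, log2 scale) differed between the lines, by limma's test of the difference itself, in 15 members, and each value here is the response of VEC-positive minus that of VEC-null cells. Among the mevalonate genes it was -1.83 for Hmgcs1, -1.97 for Mvd, -2.28 for Idi1, -2.60 for Fdps and -1.31 for Aacs. From squalene onward it was -1.86 for Fdft1, -1.26 for Sqle, -2.05 for Lss, -2.52 for Msmo1, -2.06 for Nsdhl, -1.14 for Hsd17b7 and -1.13 for Dhcr7. For the remaining genes it was -1.06 for Srebf1, -2.21 for Scd1 and -1.61 for Acss2. Acss2 passed the filter only through sparse VEC-positive cells, where it was highest. A second Hsd17b7 probe set gave -0.40 and was not called. For Srebf1 and Hsd17b7 neither line's own density change was called. All 15 rest on 1 cRNA sample per condition, so a difference between cultures and a difference between lines cannot be told apart.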

How the results depend on the processing

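Of 51 calls of members over the 5 comparisons, 39 were kept under every alternative that tested them, 12 were lost under at least 1, and 0 reversed; of 32 calls of the other named lipid genes, 22 were kept, 10 were lost and 0 reversed. Calls by adjusted p alone raised the member counts from 6 to 22 with density in VEC-null cells, from 8 to 20 between confluent lines and from 4 to 17 between sparse lines, and the larger counts hold both directions: 20 lower and 2 higher, 19 lower and 1 higher, and 15 higher and 2 lower. The share of all genes called by adjusted p alone was not computed. In the additive fit the count lower at confluence rose from 8 to 13 with a filter at the 75th percentile and to 13 with median centring, and the line effect went from 0 to 1 with that filter; the cause was not tested. With the copy number as a block the counts were unchanged, at 18, 6, 8, 4 and 15, and it changed no other call. Leaving out each copy gave 17 to 19, 6 to 7, 8 to 8, 4 to 4 and 14 to 15. Median centring moved the median density change of all genes, both chips pooled, from 0.034 to -0.069 in VEC-null and from 0.025 to -0.07 in VEC-positive cells. The chips were not alike. With density in VEC-positive cells, array medians rose on the A chip (143.7 and 139.75 to 164.3 and 173.85) and fell on the B chip (246.2 and 251 to 223.2 and 231.9). Under median centring the density calls of Lipa and Angptl4 were lost, and no call of a member in the 5 comparisons was. Members near a log2 change of 1, and genes whose signals fall below the filter level at confluence (Lss, Cyp51, Sc5d, Acss2, Elovl6 and the B chip probe set of Insig1), are limited by signal over background.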
